A study of Mus musculus with 6 samples.

Results

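The genes described here code for the machinery of mitosis and cytokinesis: the cyclins and kinases that drive entry into mitosis, the kinetochore and spindle, and the proteins that cut the cell apart. They are 36 genes of a list of 37, taken by the gene symbol of the array's annotation, out of 18193 genes with a probe set of their own. Ccnb1 was not analysed here. Where a gene had several probe sets, the one with the highest mean over all arrays stood for it. The list has 77 probe sets in all.

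The arrays came from mouse bone marrow macrophages of 2 genotypes, E-FABP knockout and wild type, with 3 cultures of each. E-FABP, or epidermal FABP, is a lipid carrier that the gene Fabp5 encodes. Both genotypes are labelled C57BL/6 and came from naive mice of 6 to 8 weeks. Marrow cells were grown with the growth factor GM-CSF at 20 ng/ml for 7 days and then shared their wells for 18 h with E0771 breast tumour cells of mouse, which were held in an insert. All 6 cultures, the wild-type ones included, had thus been exposed to tumour cells, and no culture without them was analysed here. GM-CSF cultures of marrow hold macrophages together with cells that have dendritic cell features. The labels do not describe the knockout allele, nor whether each culture had a mouse of its own, so p-values speak only of the spread between these samples. The comparison asks how expression of the cell division genes differs between tumour-exposed cultures with and without E-FABP.

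A cell enters mitosis when Cdk1, bound to cyclin A or cyclin B, becomes active. Kinetochores then tie chromosomes to the spindle, and the spindle checkpoint holds back the anaphase-promoting complex (APC/C), a ubiquitin ligase, until every chromosome is attached. Once the APC/C has marked cyclins and securin for destruction, the chromosomes part and a contractile ring divides the cell. Most of these genes are transcribed in late S, G2 and M phase, and their messages are scarce in cells that do not divide. Their promoters often carry a cell cycle genes homology region (CHR), bound by the MuvB core of the DREAM and B-Myb complexes, and CCAAT boxes, bound by NF-Y. Genes of DNA replication are instead typically driven through E2F sites. In marrow cultures, mature macrophages divide little and the less mature cells divide more.

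The promoters are shown first because they hold the elements that many of these genes share. RefSeq promoter windows of build GRCm38.p6, from 250 bases before to 50 after the start of transcription, were found for 31 of the 36 genes. Ccna2, Aurkb, Kif20a, Tpx2 and Incenp had no entry. The CHR was searched as TTTGAA or TTCGAA, the CCAAT box as CCAAT, and the E2F site as TTTGGCGC, TTTCCCGC, TTTGCCGC or TTTCGCGC, on both strands, and matches of different motifs may overlap. A CHR lay in 26 of 31 windows (83.9%), against 17.5% of 14452 measured genes with a window and 21.7% of all 27025 genes in the table. Within 50 bases of the start, 24 of 31 genes (77.4%) had a CHR, against 4.62% of measured genes. CCAAT boxes lay in 23 of 31 (74.2%), against 42% of measured genes, and CHR and CCAAT box together in 22 (71%), against 8.25%. An E2F match was found in 1 of 31 genes, Cdk1 (3.23%), against 3.81% of measured genes. Among 32 DNA replication genes with a window, 6 had a CHR (18.8%) and 13 an E2F match (40.6%). Other cell division genes lay in between: of 115 with a window, from 8 lists described further on, 49 had a CHR (42.6%), 33 a CHR and a CCAAT box (28.7%) and 22 an E2F match (19.1%). A match of letters is a description and not evidence of binding.

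**Figure D1:**
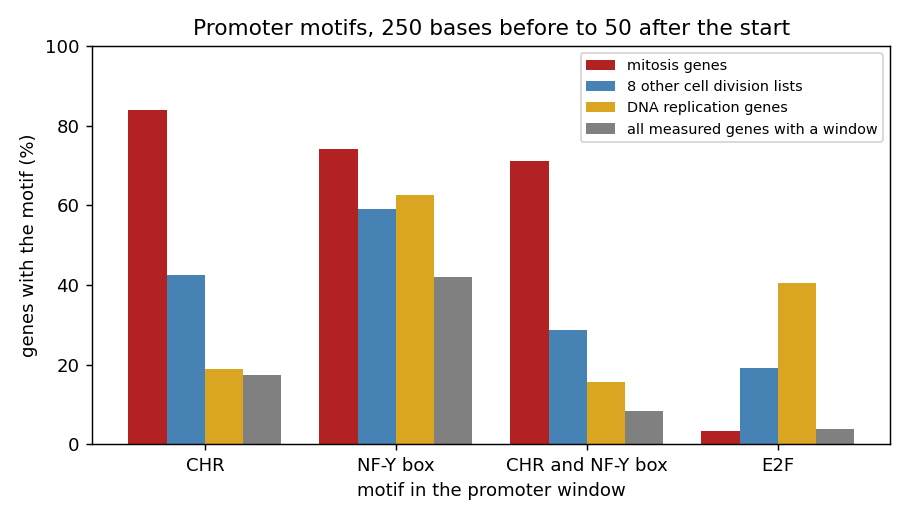
Percent of genes whose promoter window (250 bases before to 50 after the start) holds each motif, for 31 mitosis genes, 115 genes of 8 other cell division lists, 32 DNA replication genes and 14452 measured genes with a window; the NF-Y box is the CCAAT box. The mitosis genes stand at 83.9% for the CHR and 3.23% for the E2F site, the other cell division genes at 42.6% and 19.1%, the replication genes at 18.8% and 40.6%.

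The 100 bases before the start are printed for 6 genes, with matches to a CHR, CCAAT box or E2F site in capitals (a motif on the other strand reads as TTCAAA or ATTGG). The first 3 rose in knockout and carry both elements. Cdc20 carries both and did not pass the test. Mad2l1, which rose, and Birc5, which did not pass, carry neither in this stretch.
Cdk1, chr10:69352913-69353012, minus strand: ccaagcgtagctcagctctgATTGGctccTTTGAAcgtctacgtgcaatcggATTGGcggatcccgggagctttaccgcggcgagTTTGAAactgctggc
Top2a, chr11:99024190-99024289, minus strand: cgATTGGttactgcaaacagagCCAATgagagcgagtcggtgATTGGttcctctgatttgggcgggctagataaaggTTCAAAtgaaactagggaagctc
Ube2c, chr2:164769829-164769928, plus strand: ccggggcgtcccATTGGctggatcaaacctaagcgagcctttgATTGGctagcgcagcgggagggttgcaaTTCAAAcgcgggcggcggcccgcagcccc
Cdc20, chr4:118437344-118437443, minus strand: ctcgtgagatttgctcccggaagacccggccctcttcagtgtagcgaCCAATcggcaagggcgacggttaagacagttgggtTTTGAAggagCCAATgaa
Mad2l1, chr6:66535121-66535220, plus strand: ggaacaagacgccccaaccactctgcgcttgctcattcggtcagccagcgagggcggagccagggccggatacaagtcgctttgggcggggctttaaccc
Birc5, chr11:117849137-117849236, plus strand: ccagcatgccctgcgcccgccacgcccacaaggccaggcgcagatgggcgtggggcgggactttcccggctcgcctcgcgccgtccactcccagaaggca

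Of 8 genes with a window that rose, 7 had a CHR (87.5%), and of 23 that did not pass, 19 had one (82.6%). CCAAT boxes lay in 6 of 8 (75%) and 17 of 23 (73.9%), and an E2F match in 1 of 8 (12.5%) and 0 of 23. These differences were not tested. In Cdk1 the CHR nearest the start begins 15 bases before it, with CCAAT boxes at 48 and 80 bases before it. In Ube2c the CHR begins at 29 bases before the start, with CCAAT boxes at 57 and 88 bases before it. In Cdc20 the CHR begins at 18 bases before the start. The CHR of Bub1, Spc25 and Cdca8, which also rose, begins 15, 25 and 14 bases after the start and lies outside the stretch of the kind printed.

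The mitosis genes were higher in knockout as a group, by a median of 0.34 on the log2 scale, against 0.01 over all genes. Of 36 genes, 9 rose, 0 fell and 27 did not pass (limma, Benjamini-Hochberg adjustment over 45037 probe sets, adjusted p under 0.05). Over all genes, 2.85% were higher and 2.05% lower by the same rule. At an unadjusted p under 0.05 limma gave 22 higher and 0 lower, where all genes gave 15.2% and 8.15%. The 9 that rose were Bub1, Cep55, Spc25, Top2a, Cdca8, Ube2c, Aurkb, Mad2l1 and Cdk1, with rises from 0.45 to 0.84. A higher mean in knockout was seen in 33 genes (53.1% of all genes), and in 19 all 3 knockout values lay above all 3 wild-type values (20.7% of all genes). In 0 genes did the knockout values all lie below (11.2% of all genes). A rise of at least 0.5 was seen in 11 genes (1.44% of all genes). Since the list was chosen with earlier results of these arrays known, these counts describe it and are not a test of it.

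**Figure D2:**
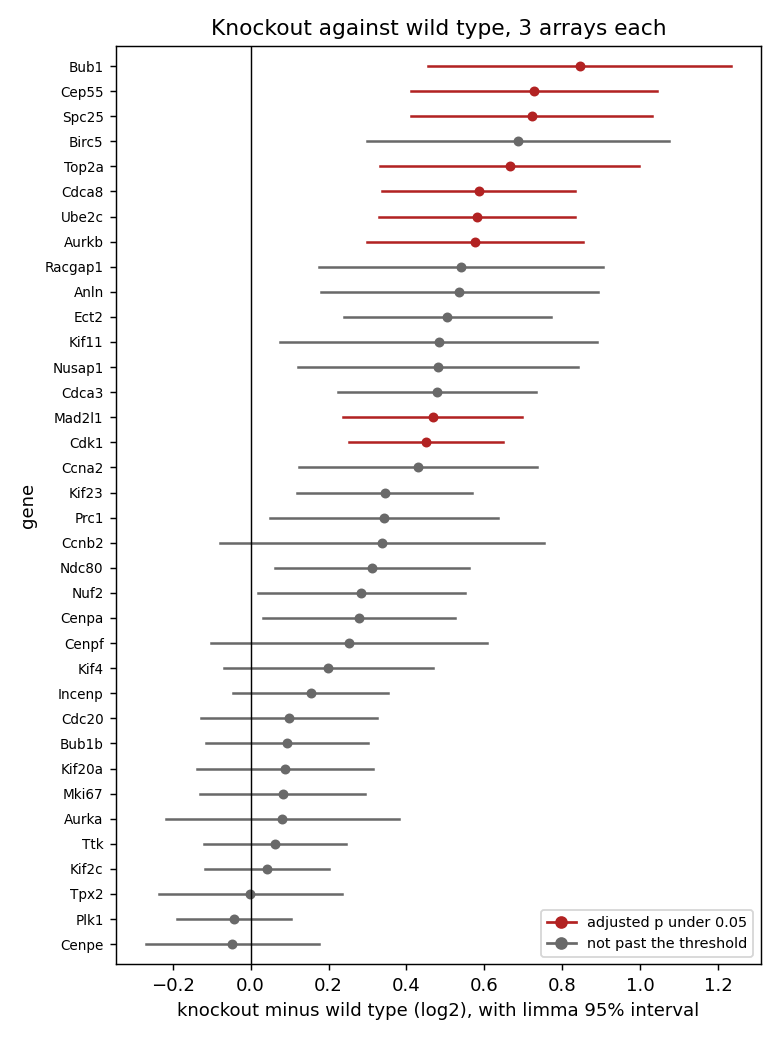
Difference between knockout and wild type (log2, knockout minus wild type, 3 arrays each) for the 36 genes, points with limma 95% intervals; red marks the 9 genes past an adjusted p of 0.05. Differences run from -0.05 (Cenpe) to 0.84 (Bub1).

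The calls depended on single arrays. Omitting knockout replicate 1 left 0 genes past the threshold, and so did omitting knockout replicate 2. The same held when wild-type replicate 1 was omitted, and again for wild-type replicate 2. When wild-type replicate 3 was omitted 3 genes rose, and when knockout replicate 3 was omitted 14 did. In the 4 fits with 0, limma gave 20, 16, 20 and 18 genes higher and 0 lower at an unadjusted p under 0.05. The share of all genes called higher dropped in those fits too, to 0.0495%, 0.379%, 0.423% and 0.115%. The median difference ran from 0.26 (without knockout replicate 2) to 0.46 (without knockout replicate 3), and 30 to 35 of the 36 genes had a higher mean in knockout, where all 6 arrays gave 33.

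**Figure D3:**
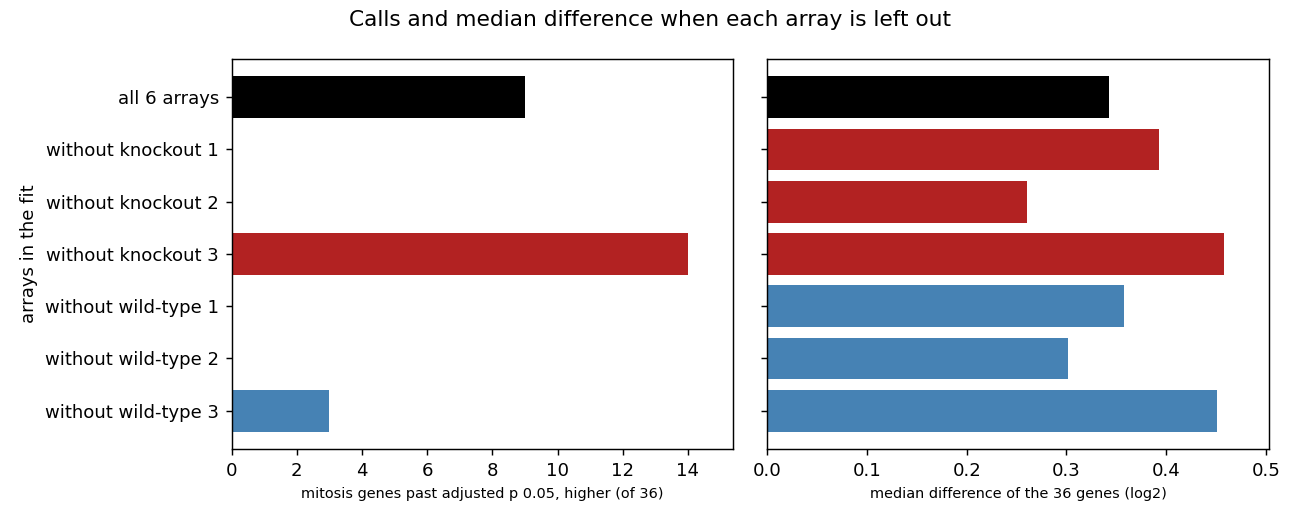
Number of mitosis genes called higher (left, of 36) and their median difference in log2 (right) with all 6 arrays and with each array left out in turn. The count runs from 0 to 14, while the median stays between 0.26 and 0.46.

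Knockout replicate 2 was the highest array and wild-type replicate 2 the lowest. Averaged over the 36 genes, log2 intensity lay at 6.70, 6.86 and 6.52 on knockout replicates 1, 2 and 3, and at 6.37, 6.23 and 6.43 on wild-type replicates 1, 2 and 3. The genotypes did not overlap in this average, and the distance between the nearest arrays, knockout replicate 3 and wild-type replicate 3, was smaller than the spread within either genotype. Within the knockout, replicate 2 was the highest array for 30 of 36 genes (36.8% of all genes) and replicate 3 the lowest for 29. Within the wild type, replicate 2 was the lowest for 22 genes and replicate 3 the highest for 21. The median SD over the 36 genes was 0.20 in knockout and 0.15 in wild type, against 0.08 in each genotype over all genes.

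**Figure D4:**
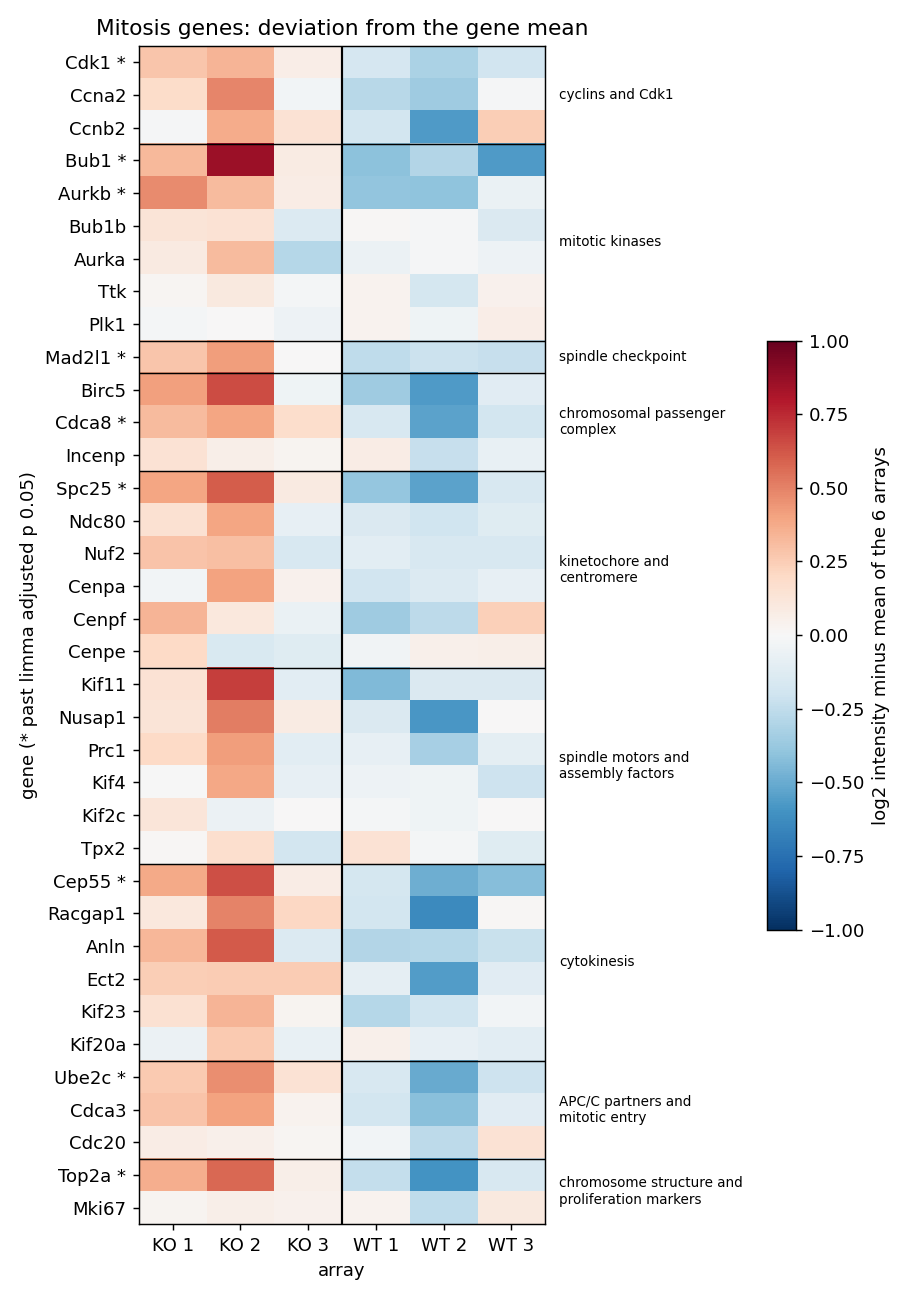
Deviation of each gene's log2 intensity from its mean over the 6 arrays (KO, knockout; WT, wild type; replicate numbers below), grouped by role, with asterisks on the 9 genes past the threshold. Knockout replicate 2 is the highest of the 6 arrays for 28 genes and wild-type replicate 2 the lowest for 20.

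Among the cyclins and Cdk1, Cdk1 rose and both measured cyclins did not pass. Cdk1, the kinase that starts mitosis, read 8.94, 9.004 and 8.73 in knockout and 8.50, 8.35 and 8.48 in wild type (log2 intensity, replicates 1 to 3). The lowest knockout value lay above the highest wild-type value, and the rise was 0.45 (SE 0.09, 1.37-fold, limma adjusted p = 0.0306). Ccna2 codes for cyclin A2, which acts in S phase and early mitosis. It read 7.74, 8.05 and 7.53 in knockout and 7.28, 7.20 and 7.54 in wild type, so that knockout replicate 3 and wild-type replicate 3 overlapped (difference 0.43, SE 0.14, limma adjusted p = 0.115). The other Ccna2 probe set, at a difference of 0.54 with no overlap, had a limma adjusted p of 0.0529. Ccnb2, which codes for cyclin B2, read 6.40, 6.78 and 6.56 in knockout and 6.23, 5.84 and 6.66 in wild type. These groups overlapped, and the 95% interval of its difference ran from -0.08 to 0.75.

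The mitotic kinases split: 2 of 6 rose and the others had differences near 0. Bub1, a checkpoint kinase at the kinetochore, had the highest rise of the 36 genes. It read 6.94, 7.47 and 6.70 in knockout and 6.20, 6.33 and 6.05 in wild type, without overlap, a rise of 0.84 (SE 0.17, 1.80-fold, limma adjusted p = 0.0345). Its dimmer probe set differed by 0.16 (limma adjusted p = 0.31), also without overlap.

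Aurkb, the kinase that corrects faulty attachments of chromosomes to the spindle, read 5.99, 5.84 and 5.60 in knockout and 5.13, 5.12 and 5.46 in wild type. It rose by 0.58 (SE 0.12, limma adjusted p = 0.0389), with no overlap, although its mean lay under 5.63, the median of all values, where fold changes are less certain. Its probe set ends in _x_at, a suffix for probes that may bind other transcripts, and the other one differed by 0.33 (limma adjusted p = 0.116).

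Plk1, the polo kinase that acts on centrosomes, spindle and cytokinesis, did not follow. Its values were 6.56, 6.58 and 6.53 in knockout and 6.61, 6.54 and 6.65 in wild type, with a difference of -0.04 and a 95% interval of -0.19 to 0.10. That interval lies wholly below the list's median of 0.34, as do those of Cenpe, Kif2c, Tpx2, Ttk, Mki67, Bub1b, Kif20a and Cdc20. The median comes from these same genes and arrays, so this is a description and not a test. Aurka, the centrosomal Aurora kinase, differed by 0.08 (95% interval -0.22 to 0.38). Ttk, also called Mps1, which starts the checkpoint signal, differed by 0.06, and Bub1b, or BubR1, which helps inhibit the APC/C, by 0.09. Both groups of values overlapped in each of these 3 genes, although a dimmer probe set of Bub1b differed by 0.44 and one of Ttk by 0.25, each without overlap (limma adjusted p = 0.0818 and 0.154). A further dim probe set of Bub1b lay at -0.099, with all knockout values below the wild-type ones (limma adjusted p = 0.431).

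Of the 4 checkpoint genes Bub1, Bub1b, Ttk and Mad2l1, 2 rose. Mad2l1 codes for Mad2, the protein that captures Cdc20 while chromosomes are unattached. It read 8.49, 8.63 and 8.21 in knockout and 7.95, 8.00 and 7.98 in wild type, a rise of 0.47 (SE 0.10, limma adjusted p = 0.0413). The wild-type arrays lay within 0.05 of each other and every knockout array was above them.

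The chromosomal passenger complex unites the kinase Aurkb with Birc5, Incenp and Cdca8, and 2 of these 4 genes rose. Cdca8, or borealin, a targeting subunit, read 8.54, 8.61 and 8.40 in knockout and 8.06, 7.69 and 8.04 in wild type. It rose by 0.59 (SE 0.11, limma adjusted p = 0.0277). Both further probe sets of Cdca8 rose as well, by 0.50 and 0.62 (limma adjusted p = 0.0305 and 0.0158). The chosen one and the one at 0.50 end in _s_at, a suffix left out in an alternative run. No other gene of the list had more than 1 probe set past the threshold. Birc5, or survivin, read 6.71, 6.95 and 6.25 in knockout and 5.94, 5.73 and 6.18 in wild type. Its difference of 0.69 was the fourth highest and its groups did not overlap, yet with a wide spread it did not pass (SE 0.17, limma adjusted p = 0.0614). Incenp, the scaffold, differed by 0.15 with overlap, at a probe set ending in _x_at. Of its dimmer probe sets, one differed by 0.27 without overlap (limma adjusted p = 0.13). The others lay at 0.13, 0.20 and -0.083, with overlap.

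At the kinetochore and centromere, 1 of 6 genes rose. Spc25, a subunit of the Ndc80 complex that grips microtubules, read 6.75, 6.97 and 6.45 in knockout and 5.97, 5.83 and 6.20 in wild type. Its rise was 0.72 (SE 0.14, limma adjusted p = 0.0289), without overlap, but its dimmer probe set lay at -0.092 (limma adjusted p = 0.701). The partners Ndc80 (0.31) and Nuf2 (0.28), each with a mean under the median of all values, did not pass, with limma adjusted p of 0.154 and 0.217. Cenpa, the histone variant that marks centromeres, read 8.38, 8.81 and 8.45 in knockout and 8.21, 8.27 and 8.33 in wild type. Its groups did not overlap and its difference was 0.28 (limma adjusted p = 0.194). The 2 large motor-associated kinetochore genes Cenpf (0.25) and Cenpe (-0.05) overlapped between genotypes.

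Among spindle motors and assembly factors, 0 of 6 genes passed, with 3 higher and 0 lower at an unadjusted p under 0.05. Kif11, the motor that pushes spindle poles apart, read 5.03, 5.57 and 4.78 in knockout and 4.45, 4.74 and 4.74 in wild type, with a difference of 0.48 (limma adjusted p = 0.173). Knockout replicate 2 was the highest array, the groups did not overlap, and all of its probe sets had means under the median of all values. Nusap1, which bundles spindle microtubules, differed by 0.48 (limma adjusted p = 0.129), with no overlap, and its dimmer probe set by -0.026. Prc1, which joins the antiparallel microtubules of the central spindle, differed by 0.34 (limma adjusted p = 0.18) and overlapped. Its dimmer probe set, however, rose by 0.51 (SE 0.10, limma adjusted p = 0.034). The chromosome motor Kif4 differed by 0.20 with overlap. Kif2c, which takes microtubules apart at centromeres, and Tpx2, an activator of Aurka, differed by 0.04 and -0.0005, with 95% intervals of -0.12 to 0.20 and -0.24 to 0.23.

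The 6 cytokinesis genes had a median difference of 0.52 and 1 of them rose. Cep55, which recruits the machinery of the final cut to the midbody, read 6.90, 7.17 and 6.60 in knockout and 6.35, 6.04 and 6.10 in wild type. It rose by 0.73 (SE 0.14, 1.66-fold, limma adjusted p = 0.0299), without overlap, while its dimmer probe set differed by 0.08.

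The other 5 genes around the contractile ring did not pass, although 4 of them had groups without overlap. Ect2, the exchange factor that activates RhoA, read 5.89, 5.89 and 5.89 in knockout and 5.55, 5.08 and 5.52 in wild type. Its difference was 0.50 (SE 0.12, limma adjusted p = 0.0508), and the knockout arrays hardly differed from each other. Racgap1, the partner of Ect2 in the centralspindlin complex, differed by 0.54 (limma adjusted p = 0.101). Anln, the ring scaffold anillin, differed by 0.54 (limma adjusted p = 0.097), and its dimmer probe set by -0.093 with overlap. Kif23, the motor subunit of centralspindlin, differed by 0.34 without overlap (limma adjusted p = 0.0919). Kif20a, a motor of the central spindle, differed by 0.09 with overlap.

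Of the genes that act with the APC/C and at mitotic entry, Ube2c rose. Ube2c, the ubiquitin-conjugating enzyme of the APC/C, read 7.04, 7.25 and 6.93 in knockout and 6.62, 6.28 and 6.58 in wild type. The rise was 0.58 (SE 0.11, limma adjusted p = 0.0298), without overlap. Cdc20, the activator of the APC/C and its checkpoint target, read 6.77, 6.76 and 6.72 in knockout and 6.67, 6.44 and 6.85 in wild type. Wild-type replicate 3 was the highest array, and the difference was 0.10 (95% interval -0.13 to 0.32). One of its other probe sets differed by 0.43 without overlap (limma adjusted p = 0.0796). Cdca3, which takes part in entry into mitosis, differed by 0.48 (SE 0.11, limma adjusted p = 0.0519), without overlap.

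The 2 common proliferation markers disagreed. Top2a, the topoisomerase that untangles sister chromatids, read 8.09, 8.30 and 7.78 in knockout and 7.49, 7.13 and 7.57 in wild type. It rose by 0.67 (SE 0.15, limma adjusted p = 0.0441), without overlap, but its 2 dimmer probe sets lay at -0.10 and -0.15 and did not pass. Mki67, the gene of the Ki-67 antigen that coats mitotic chromosomes, read 9.07, 9.10 and 9.09 in knockout and 9.08, 8.79 and 9.14 in wild type. Its groups overlapped and its difference was 0.08 (95% interval -0.13 to 0.29, limma adjusted p = 0.687). It has a single probe set, and that one was well above the median of all values.

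The probe sets not chosen were mostly dim. The 24 genes with several probe sets had 41 others, of which 33 had a mean under 5.63. Of the 41, 27 had a higher and 14 a lower mean in knockout, with a median of 0.11, and 3 rose and 0 fell (2.06% of all probe sets were higher by the same rule). The 14 lower ones ran from -0.17 (Tpx2) to -0.0073 (Kif23).

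Related cell division genes outside the list had a smaller median difference, and this contrast was not tested. In 8 further lists with 141 measured genes, 12 rose (8.51%), 3 fell and 126 did not pass, with a median of 0.11. Over all genes, 2.85% rose and 2.05% fell. At an unadjusted p under 0.05 limma gave 49 of the 141 higher and 6 lower, where all genes gave 15.2% and 8.15%. Among 29 other kinetochore and centromere genes 1 rose (3.45%, near the share of all genes), 0 fell and 28 did not pass. At an unadjusted p under 0.05, however, limma gave 14 of these 29 higher and 0 lower, and 23 had a higher mean in knockout (53.1% of all genes). The gene that rose was Mis18a, which helps load Cenpa (0.35, SE 0.08). Of 26 other spindle, motor and cytokinesis genes 3 rose (11.5%). They were the kinase Melk (0.61, SE 0.13), the motor Kif22 (0.40, SE 0.09) and Depdc1a (0.49, SE 0.08). Melk and Depdc1a had means under the median of all values, and the probe sets of Mis18a and Kif22 end in _x_at.

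In the list of 17 condensin, cohesin and separase genes, 2 rose and 1 fell. The condensin subunits Smc2 (0.61, SE 0.10) and Ncapd3 (0.50, SE 0.10) rose. Pttg1, or securin, the inhibitor of separase that the APC/C destroys at anaphase, fell by 0.85 (SE 0.15, limma adjusted p = 0.0235). It read 12.10 ± 0.29 in knockout and 12.95 ± 0.20 in wild type (log2 intensity, mean ± SD, n = 3 each), without overlap. Knockout replicate 2 was the lowest array (11.79) and wild-type replicate 2 the highest (13.19). The Pttg1 probe set, like that of Ncapd3, ends in _s_at, a suffix left out beside _x_at in an alternative run. No other Pttg1 probe set is described here.

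The regulators of Cdk1 gave 2 rises of 8: Cks1b, a small subunit of Cdk complexes (0.65, SE 0.11), and Cdc25b, a phosphatase that activates Cdk1 (0.39, SE 0.07). Among 20 DREAM, FoxM1 and E2F regulators, the pocket protein Rbl2 (0.43, SE 0.10) and the repressor E2f6 (0.40, SE 0.09) rose, and 18 did not pass. In the list of 15 G1 cyclins and Cdk inhibitors, Cdkn2c (0.50, SE 0.11) and Cdk4 (0.29, SE 0.06) rose, Cdk4 at an _x_at probe set. Ccnd1, or cyclin D1, fell by 0.77 (SE 0.14, limma adjusted p = 0.0252). Sass6, a centriole scaffold, fell by 0.66 (SE 0.13) among 11 centrosome duplication genes, of which 10 did not pass. Of 15 APC/C subunits and regulators limma called 0, with 2 higher and 0 lower at an unadjusted p under 0.05.

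DNA replication genes were also higher in knockout. Among the 40 with a probe set, 20 rose (50%, against 2.85% of all genes) and the remaining 20 did not pass, with a median of 0.37. The 4 with the smallest p were the polymerase subunit Pole2 (0.67, SE 0.09), the dUTPase Dut (0.82, SE 0.13) and, of the replicative helicase, Mcm3 (0.71, SE 0.11) and Mcm4 (0.68, SE 0.11). Omitting knockout replicate 1 or wild-type replicate 2 left 0 of them, omitting knockout replicate 2 left 1, omitting wild-type replicate 1 left 2, and omitting wild-type replicate 3 left 8. Without knockout replicate 3 the count was 20. Whether both lists differ from each other was not tested.

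Markers of other cell types moved on the same arrays, and RNA came from the whole culture, so more cells of a type and more RNA per cell cannot be told apart. The macrophage label was borne out by high levels of Csf1r (13.87 ± 0.02 in knockout, 13.89 ± 0.02 in wild type, n = 3 each), Cd68 and Adgre1. Of 10 macrophage markers 2 fell, Fcgr1 (-1.13, SE 0.19) and Mertk (-0.46, SE 0.08). Dendritic cell markers averaged 7.54 to 7.97 in knockout and 7.27 to 7.53 in wild type. Of these 11, Batf3 rose (0.53, SE 0.11) and 0 fell, with 6 higher and 0 lower at an unadjusted p under 0.05 in limma. In all, 7 had a higher and 4 a lower mean in knockout, the lowest difference being -0.08. The bright markers Ccl17 (0.87), Dpp4 (0.71), Ccr7 (0.71) and Ccl22 (0.67) did not pass, with limma adjusted p from 0.0519 to 0.0912 and no overlap. The classical markers Xcr1, Cd209a and Itgae lay under the median of all values in both genotypes. Neutrophil markers averaged 8.62 to 9.20 in knockout and 9.24 to 9.49 in wild type, with 0 of 11 past limma's threshold, and an unadjusted p under 0.05 for 8 lower and 1 higher. Fibroblast markers averaged 4.92 to 5.04 in knockout and 5.43 to 5.49 in wild type, and 3 of 8 fell. Of these 8, 5 had a mean under the median of all values. Over all genes, 2.85% rose and 2.05% fell past limma's threshold. At an unadjusted p under 0.05 in limma, 15.2% of all genes were higher and 8.15% lower.

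The order of the knockout arrays was shared by several of these lists. Deviations of the mitosis genes from their means were 0.19, 0.34 and -0.0007 on knockout replicates 1, 2 and 3, and those of the dendritic cell markers 0.11, 0.43 and -0.0037. The neutrophil markers lay at -0.15, -0.54 and 0.05 and 17 interferon-stimulated genes at -0.73, -1.60 and -0.20. Thus knockout replicate 2 was the highest in the first 2 lists and the lowest in the others. On wild-type replicates 1, 2 and 3 the mitosis genes lay at -0.15, -0.29 and -0.09, and the interferon-stimulated genes at 0.73, 1.12 and 0.68. The dendritic cell markers lay at -0.23, -0.28 and -0.02 there, and the neutrophil markers at 0.20, 0.09 and 0.34. Within the wild type the neutrophil markers were thus lowest on replicate 2 and highest on replicate 3, as the mitosis genes were. Their opposite order in knockout did not hold in wild type. The part of these markers in the result was not tested.

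**Figure D5:**
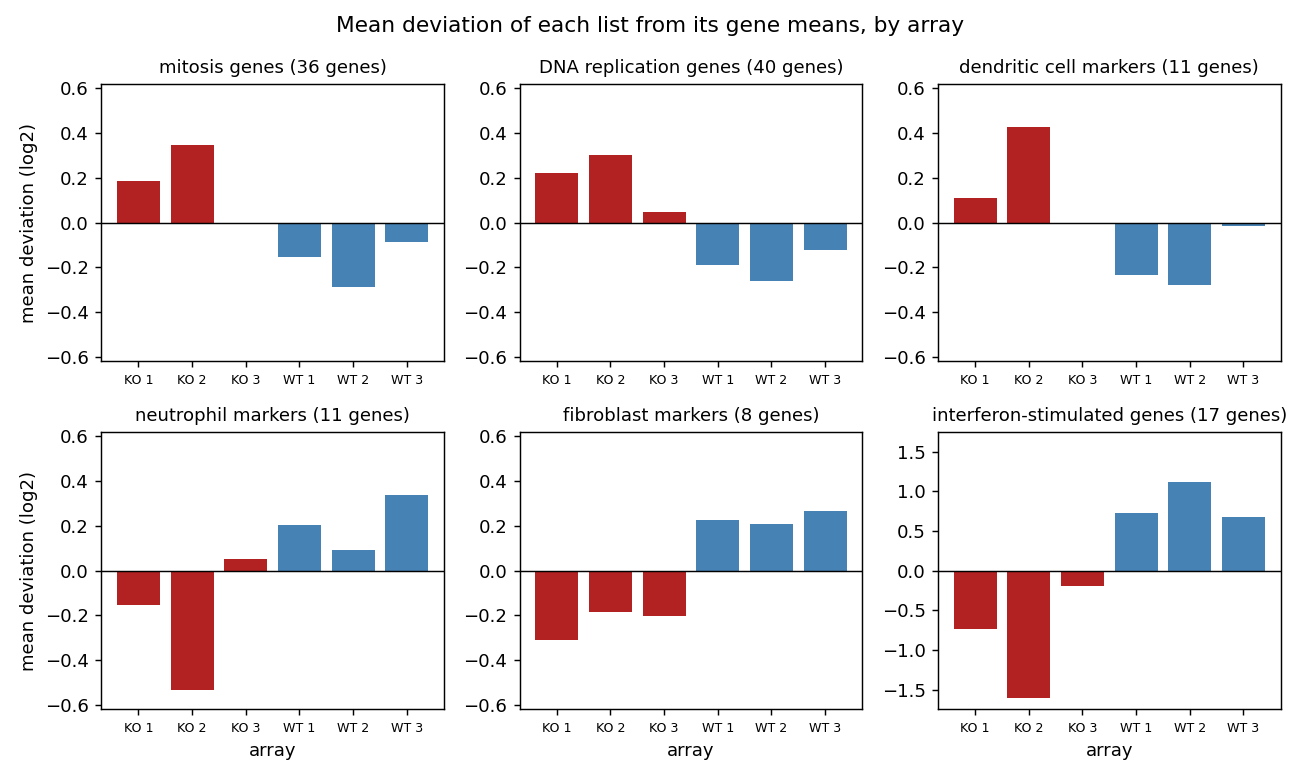
Mean deviation (log2) of 6 gene lists from their gene means on each array (KO, knockout in red; WT, wild type in blue); the panel of interferon-stimulated genes has a wider axis. Mitosis genes, replication genes and dendritic cell markers peak on knockout replicate 2, where neutrophil markers and interferon-stimulated genes are lowest.

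Markers of immature marrow cells and of tumour cells were examined because such cells divide. Of 8 myeloid progenitor markers, Sox4 rose by 1.14 (SE 0.22) and 0 fell, with 4 means higher and 4 lower in knockout and a median of -0.0047. At an unadjusted p under 0.05 limma gave 2 higher and 2 lower. Kit differed by 0.59, Ms4a3 by -0.57 and Ctsg by -0.32 (limma adjusted p = 0.0669, 0.0959 and 0.142). Cd34 (3.90 against 3.82) and Myb (4.91 against 5.14) lay under the median of all values, and the list averaged 6.22 to 6.25 in knockout and 6.04 to 6.24 in wild type. Of 10 epithelial and mammary tumour markers limma called 0, with 1 higher and 1 lower at an unadjusted p under 0.05. Krt8 read 5.20 in knockout against 5.24 in wild type and Krt18 4.06 against 4.08, both under the median of all values, and the list averaged 5.89 to 5.91 and 5.83 to 5.93. The knocked-out gene itself, Fabp5, was lower by 6.17 (log2) in knockout than in wild type on its brighter probe set, with no overlap.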

How the data were processed

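Total RNA of 6 macrophage cultures was amplified and biotin-labelled with a 3' IVT kit for Affymetrix arrays, per the labels' protocols. The authors deposited log2 values, 1 per probe set and array; the values' range gave the scale. The submitters' processing notes list GCRMA 2.30.0 and RMA beside affy 1.36.1 and limma 3.14.4, with no role, so which method made the values is unknown. Both methods normalize arrays to a like distribution and treat dim probe sets differently. Array medians lay between 5.60 and 5.64, and no arrays held identical values. Precision is limited by having 3 arrays of each genotype.

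Of 45101 probe sets, 64 controls were left out. Gene symbols came from the platform annotation: 34945 of the probe sets had 1 gene, 932 several and 9160 none. The genotypes were compared in limma 3.58.1 under R 4.3.3 (lmFit and eBayes, with genotype alone in the model). P-values were adjusted by Benjamini-Hochberg over 45037 probe sets, with a threshold of 0.05. SEs and 95% intervals are limma's moderated ones (prior degrees of freedom 5.04). Permuting the 6 arrays gives a two-sided p of 0.1 at best. On simulated arrays with the spread of the real ones and 200 of 45037 probe sets changed, the fit recovered 40% of changes of 0.5 and 87% of changes of 1, with 8 false calls. These rates describe the simulated arrays only. The mitosis genes had a median SE of 0.11, against 0.08 over all genes, so recovery among them was not measured. On the real arrays 927 probe sets were called higher alone, so the false calls among them are unknown.

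The members and lists were chosen with earlier results of these data known. All 36 measured members are named. From each related list, up to 4 genes past the threshold with the smallest p are named. Marker genes, Fabp5 and other genes that did not pass are named as described. Motifs were counted in RefSeq promoter windows, whose sequence was checked to run in the direction of the gene. The labels do not say whether replicate numbers pair the samples. Deviations of same-numbered arrays from their genotype means correlated at -0.06, -0.04 and -0.13. With 3 arrays of each genotype, this cannot show whether same-numbered cultures were handled together. Plots used matplotlib 3.10.9 (Python 3.11.15).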

Additional observations from a re-analysis of the deposited data

How the results depend on the processing

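The number of mitosis genes that rose, 9 of 36, ran from 0 to 14 when each array was left out, and the number that fell was 0 in every alternative run. With the replicate number as a block 0 genes rose, with 22 genes higher and 0 lower at an unadjusted p under 0.05 in limma. In this balanced design a block cannot change the differences, so the median of 0.34 is no check of stability there. With a floor at the 20th percentile (4.07) 0 genes rose, with 13 higher and 0 lower at an unadjusted p under 0.05 in limma. Every value of the 36 chosen probe sets lay above this floor, so their differences and the median of 0.34 could not change. Only limma's moderated spread and the adjustment, which draw on all probe sets, could change. Their parts in the loss of calls were not tested. The lowest-mean probe set of each gene gave 5 rises and a median of 0.14, with Top2a at -0.15 and Spc25 at -0.092, neither past the threshold. An adjusted p under 0.1 gave 14. The share of all genes called higher, 2.85% in the main result, moved as well: it was 0.121% with the block, 0.132% with the floor, 7.04% at an adjusted p under 0.1, 6.51% with trend and robust settings and 9.24% among above-median probe sets. The other 7 alternatives (quantile normalization, median centring, above-median probe sets only, trend and robust settings, array weights, no _s_at or _x_at probe sets, averaged probe sets per gene) gave 6 to 12, and a minimum change of 0.5 gave 7. Leaving out an array gave a median of 0.26 to 0.46. Averaging each gene's probe sets gave a median of 0.22, and above-median probe sets only gave 0.44. That last run covered 28 of the genes, of which 11 rose. The run without _s_at and _x_at probe sets covered 35, of which 10 rose. Over these 36 genes and every alternative run, 72 single-gene calls were lost and 24 gained. Signal close to background limits the 8 genes whose mean lay under the median of all values.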
